A study of Mus musculus with 39 samples.

Results

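The mRNAs described here encode the folding, stress-sensing and degradation machinery of the endoplasmic reticulum (ER): lumenal chaperones and co-chaperones, glycoprotein folding factors, disulfide isomerases and oxidases, prolyl isomerases, ER-associated degradation factors, and the sensors and transcription factors of the unfolded protein response. The 42 genes were chosen by name, out of 13230 genes listed for both gradients, by a rule that holds no measured value, although earlier results of these data were known when they were chosen. RNA came from livers of wild-type FVB female mice, homogenized without detergent, cleared of nuclei by a low-speed spin and spun through a sucrose gradient, whose fractions are numbered from the lightest to the densest. Gradient 1 gave 17 libraries (fractions 4 to 19 and 21) and gradient 2 gave 22 (fractions 3 to 24), and both gradients are of the same genotype and untreated, so the comparison is between positions in the gradient. The age of the mice and the number of livers in a gradient are not given in the sources used here.

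Proteins that are secreted or live in the ER are made by ribosomes docked on the ER membrane, and a detergent-free gradient leaves such membranes in place. Inside the ER, Hsp70 and Hsp90 family chaperones bind unfolded chains, the calnexin and calreticulin cycle handles glycoproteins, and protein disulfide isomerases form and shuffle disulfide bonds. Chains that fail to fold are pulled back to the cytosol, ubiquitinated and degraded by the proteasome. When unfolded chains build up, the sensors Ern1 (IRE1), Atf6 and PERK raise the transcription of the folding machinery. Hepatocytes, which secrete most plasma proteins, carry a large ER.

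Most of these proteins enter the ER through a signal peptide, a hydrophobic stretch near the N-terminus. The first 25 codons of 7 members are shown to contrast mRNAs that encode a signal peptide (Hspa5, Calr, P4hb) with mRNAs of cytosolic or nuclear proteins (Vcp, Atf4, Xbp1) and with Herpud1, a membrane protein without an N-terminal signal peptide. They run 5′ to 3′ and were read from the GRCm38 genome (mm10) with the GENCODE M21 annotation. Capitals mark codons after the start codon with T at the second position, which encode the hydrophobic residues phenylalanine, leucine, isoleucine, methionine and valine.
Hspa5: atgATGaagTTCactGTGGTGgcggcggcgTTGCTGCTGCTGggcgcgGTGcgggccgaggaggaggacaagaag
Calr: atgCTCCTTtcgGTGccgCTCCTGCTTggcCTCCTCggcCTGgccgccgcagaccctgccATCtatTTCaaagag
P4hb: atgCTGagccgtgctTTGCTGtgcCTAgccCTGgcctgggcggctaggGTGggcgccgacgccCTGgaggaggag
Vcp: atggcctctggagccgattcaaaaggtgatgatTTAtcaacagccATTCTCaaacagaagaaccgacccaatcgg
Herpud1: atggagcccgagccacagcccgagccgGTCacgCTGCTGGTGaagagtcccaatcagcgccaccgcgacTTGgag
Atf4: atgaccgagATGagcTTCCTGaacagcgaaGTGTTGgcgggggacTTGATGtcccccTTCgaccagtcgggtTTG
Xbp1: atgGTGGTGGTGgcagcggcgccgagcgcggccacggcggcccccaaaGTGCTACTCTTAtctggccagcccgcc

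The annotated transcripts read for them lie at chr2:34771970-34777547 (Hspa5, plus strand), chr8:84841850-84846934 (Calr, minus strand), chr11:120560298-120573253 (P4hb, minus strand), chr4:42979963-43000507 (Vcp, minus strand), chr8:94386438-94395377 (Herpud1, plus strand), chr15:80255184-80257541 (Atf4, plus strand) and chr11:5520659-5525893 (Xbp1, plus strand). Of the 24 codons after the start, 11 had T at the second position in Calr, 9 in Hspa5, 7 in P4hb, 9 in Atf4, 7 in Xbp1, 5 in Herpud1 and 3 in Vcp. The median share was 37.5% over the 42 members and 25% over 11005 tested genes with a readable coding sequence. The count did not sort the members by itself, since Uggt1 and Edem3, whose mRNAs were highest in light fractions, also had 3 such codons.

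Levels are given as TPM, a transcript abundance scaled for transcript length and for the library, so levels of different genes can be compared. TPM is a share of each library's RNA and not an amount, so a fraction with less RNA in all is not seen as such. For tests, fractions 4 to 7 were taken as the light zone, 10 to 13 as the middle zone and 16 to 19 as the dense zone, and log2(TPM + 1) was averaged over the 4 fractions of a zone in each gradient. A change is the difference of these zone means over both gradients (n = 2), tested with limma over 11754 genes at an adjusted p under 0.05, and it understates the change of low genes. All 42 members passed the filter on low values. Fractions of a gradient are neighbors and are not replicates, so ranges over the 8 libraries of a zone show both position and gradient.

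From the light to the dense zone, 30 of the 42 mRNAs fell and 1, Vcp, rose, while 11 did not pass the test. Among all genes tested, 39.6% fell and 22.3% rose. The median change of the members was -1.71 on the log2 scale (-2.18 in gradient 1 and -1.17 in gradient 2) beside -0.43 for all genes. A negative change in both gradients was seen in 38 members and in 6626 of the 11754 genes tested. With the gradient number as a block, 34 fell and 2 rose, beside 50% and 30.5% of all genes in that fit, the additions being Dnajb11, Pdia3, Creld2 and Edem2 among the falls and Herpud1 among the rises. Scaling the libraries to equal distributions moved the median of all genes from -0.43 to -0.05 and changed the share of falls among all calls from 64% to 49.3%, and then 27 members fell (29.9% of all genes), 1 rose (30.7%) and their median change was -1.37.

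Most of the difference lay between the light and the middle zone. From the light to the middle zone 31 members fell (24.1% of all genes) and Vcp rose (23.5% of all genes), with a median change of -1.56 beside 0.05 for all genes. With the gradient number as a block 37 fell and 2 rose, beside 35% and 37.2% of all genes, with Dnajb11, Manf, Pdia3, Ppib, Edem2 and Xbp1 added to the falls and Herpud1 to the rises. From the middle to the dense zone the median change was 0.03 beside -0.28 for all genes, 39 members did not pass the test, Vcp and Creld2 rose (4.79% of all genes) and Atf4 fell (22.5% of all genes). In the plot of all 42 profiles, the high levels sit in a narrow band at fractions 4 to 6. Over the fractions that both gradients hold, 33 members had their highest TPM there in gradient 1 and 33 in gradient 2 (78.6%, beside 38.4% and 37.2% of all genes tested in gradients 1 and 2).

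**Figure D1:**
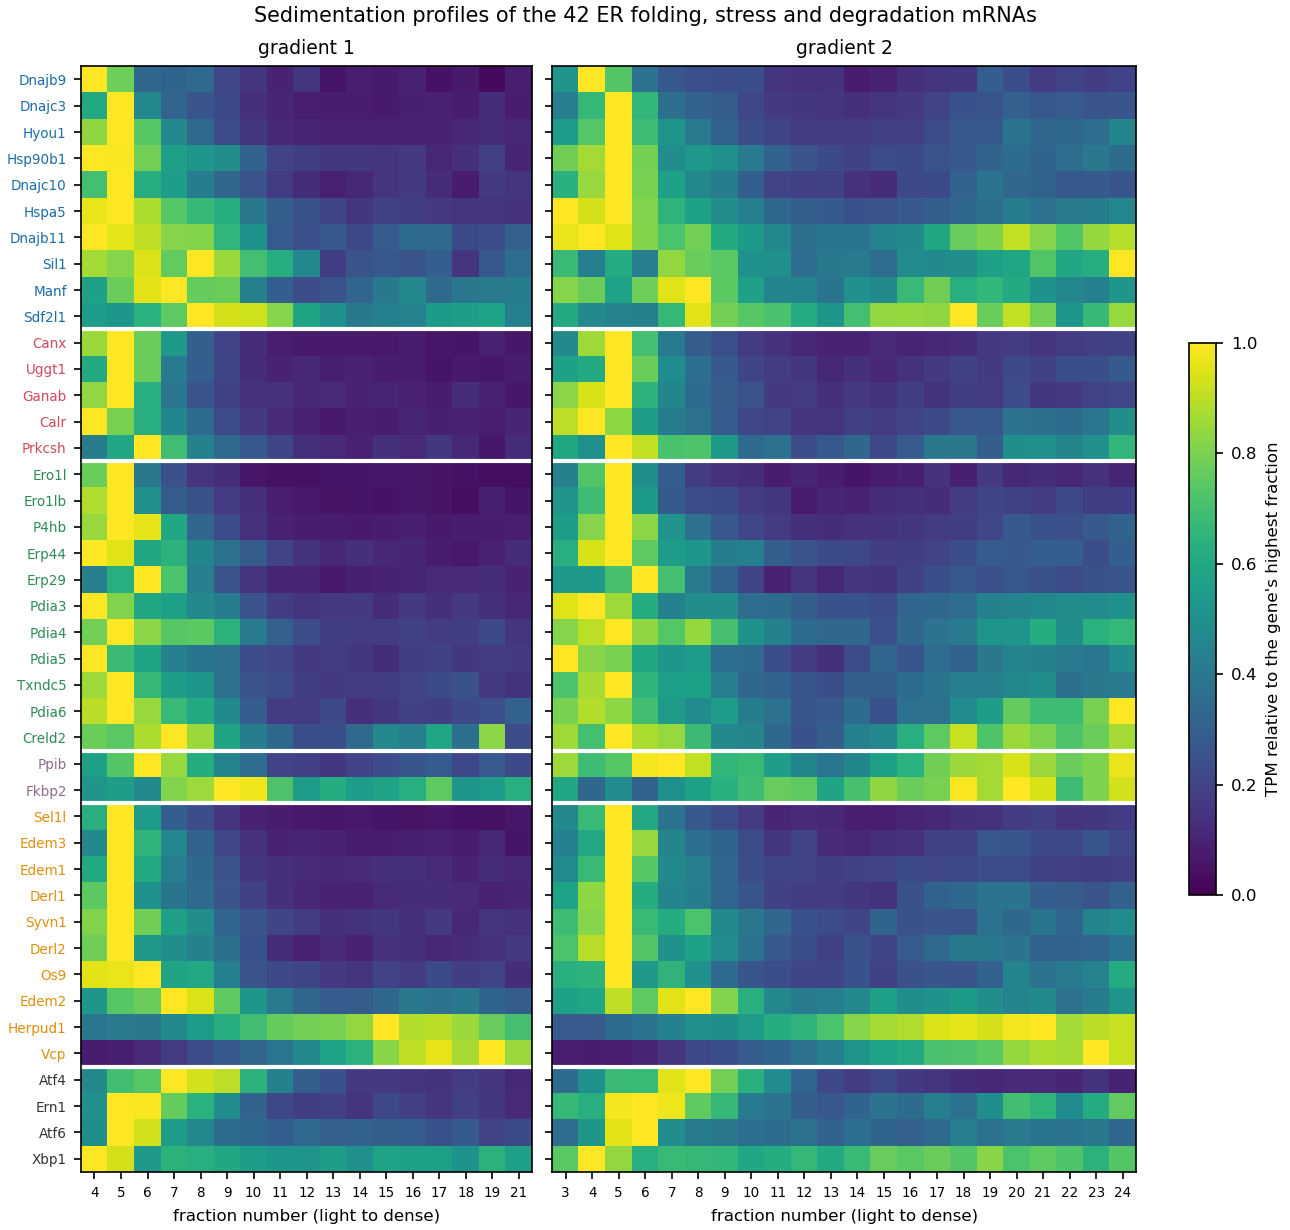
Each row is 1 of the 42 mRNAs, grouped by role (label colors and white lines) and ordered by its center within the group, and each column is 1 library, from light to dense fractions of gradient 1 (left) and gradient 2 (right). Color gives TPM relative to the gene's highest library of that gradient, and 33 members are brightest at fractions 4 to 6 when fractions shared by the gradients are compared, with Vcp and Herpud1 brightest on the dense side of both gradients.

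Of the 10 chaperones and co-chaperones, 6 fell from the light to the dense zone, where 39.6% of all genes fell, none rose, and the median change was -1.81. Hsp90b1 (GRP94), the Hsp90 of the ER lumen, had 97.7 TPM in the lowest, 173 in the median and 246 in the highest light library, against 19.5, 44.3 and 78.1 TPM in the dense zone. Hspa5 (BiP), the Hsp70 that binds nascent chains and holds the stress sensors inactive, ranged from 95.5 to 154 TPM (median 126) in the light zone, from 27 to 66.2 (median 45) in the middle zone and from 20 to 56.7 (median 33.7) in the dense zone. The light and dense libraries of neither gene overlapped. The change was -1.95 ± 0.52 (SE, n = 2, limma adjusted p = 0.0196) for Hsp90b1 and -1.87 ± 0.40 (adjusted p = 0.00892) for Hspa5.

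Hspa5 was 5.44-fold higher in the light than in the dense zone of gradient 1 and 2.63-fold higher in gradient 2. Dnajc3 (P58IPK), a J-domain partner of Hspa5, was 6.13-fold and 3.06-fold higher in the light zone (change -1.99 ± 0.41, adjusted p = 0.0079). Hyou1, a nucleotide exchange factor of Hspa5, and the J-domain proteins Dnajb9 and Dnajc10 also fell, with changes of -2.09, -2.11 and -1.74. The remaining 4 co-chaperones did not pass the test: Dnajb11 at -1.02, Sil1 at -0.87, Manf at -0.55 and Sdf2l1 at 0.28. Manf had 20.2 to 37.8 TPM (median 30.9) in the light zone and 12.2 to 31.1 (median 20.7) in the dense zone, so that its libraries overlapped.

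All 5 glycoprotein folding mRNAs fell (39.6% of all genes), with a median change of -2.16. Canx (calnexin), the membrane-bound lectin chaperone, had the largest fall of all 42 members in the change over both gradients. In gradient 1 alone the change was -3.40 for P4hb and -3.36 for Canx. The light libraries of Canx held 93.6 to 225 TPM (median 179), its middle libraries 16.3 to 40.3 (median 24.4) and its dense libraries 12.7 to 37.4 (median 21.8). The change was -2.90 ± 0.33 (adjusted p = 0.00099). Calr (calreticulin), the soluble counterpart of Canx, ranged from 167 to 396 TPM (median 269) in the light zone and from 32.4 to 109 (median 59) in the dense zone (change -2.16 ± 0.49, adjusted p = 0.0111).

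Ganab, the catalytic subunit of glucosidase II, which trims glucose from the glycan, held 21.5 to 55 TPM (median 40.4) in the light zone and 4.14 to 9.99 (median 7.58) in the dense zone, a change of -2.28 ± 0.29 (adjusted p = 0.00141). Its partner subunit Prkcsh fell by 1.70. Uggt1, the enzyme that puts glucose back on misfolded glycoproteins, had the longest coding sequence of the members with 1551 codons and fell by 2.13. Mean TPM over the 24 zone libraries differed widely inside the group, from 5.53 for Uggt1 to 133 for Calr, while the 5 centers in gradient 1 lay between 7.43 and 8.79 fraction numbers.

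**Figure D2:**
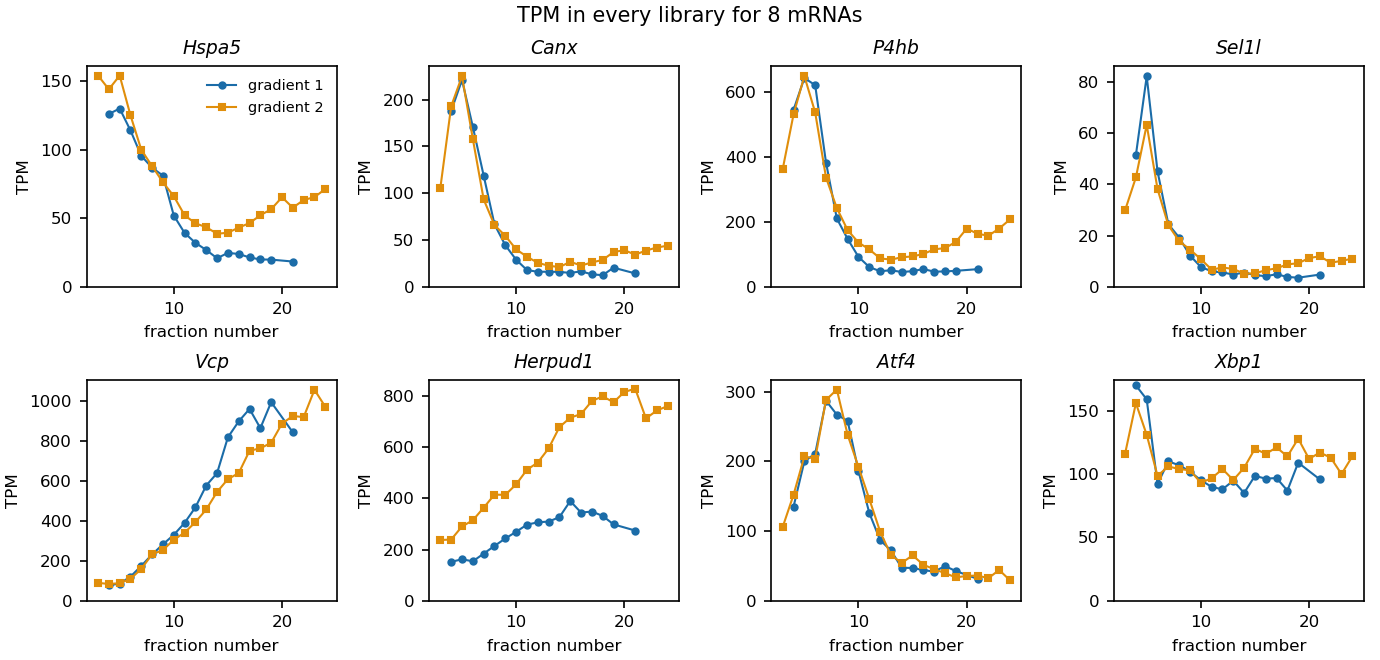
TPM (vertical axis, from 0) against fraction number for 8 mRNAs, with a point per library and a line per gradient. Canx, P4hb and Sel1l peak at fraction 5 in both gradients, and Hspa5 is highest at fraction 5 of gradient 1 and at fractions 3 and 5 of gradient 2 (154 TPM at each). Vcp climbs to 994 TPM at fraction 19 of gradient 1 and to 1056 TPM at fraction 23 of gradient 2 (791 TPM at fraction 19). Atf4 peaks at fractions 7 and 8, and Xbp1 is highest at fraction 4 in both.

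Among the 11 disulfide isomerases and oxidases, 9 fell (39.6% of all genes) and none rose, and with the gradient number as a block all 11 fell (50% of all genes). P4hb (PDI), the founding member of the family, was the most abundant of them. It held 337 to 649 TPM (median 541) in the light zone, 48.7 to 137 (median 86.3) in the middle zone and 47.4 to 139 (median 78.6) in the dense zone, and fell by 2.73 ± 0.44 (adjusted p = 0.00324). Txndc5 held 61.3 to 139 TPM (median 92) in the light zone and 18.4 to 60 (median 38) in the dense zone, so that the zones nearly met.

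The change of Txndc5 was -1.36 ± 0.47 (adjusted p = 0.0467), and it did not pass the test with libraries scaled to equal distributions or with zones of fractions 5 to 7, 10 to 12 and 17 to 19. The same held for Pdia6 (-1.31, adjusted p = 0.0442). Pdia3 (ERp57), which works with Canx and Calr on glycoproteins, lay at the threshold with a change of -1.55 (adjusted p = 0.0501, and 0.00516 with the block). Ero1l and Ero1lb, the oxidases that recharge P4hb, fell by 2.17 and 2.36, and Ero1l had the lightest center of all members in both gradients, at 7.03 and 8.4 fraction numbers.

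Erp44, which retains Ero1 proteins and other thiol clients in the early secretory pathway, held 22.1 to 40.4 TPM (median 32.9) in the light zone and 2.54 to 11.8 (median 5.76) in the dense zone, with a change of -2.26 ± 0.47 (adjusted p = 0.00813). Erp29, a redox-inactive relative of P4hb, held 68.1 to 156 TPM (median 97.7) in the light zone, 11.2 to 28.5 (median 17) in the middle zone and 16 to 37.3 (median 23.1) in the dense zone. It fell by 2.01 ± 0.28 to the dense zone (adjusted p = 0.00187), and its middle zone lay 1.43 ± 0.24 below the mean of both ends (adjusted p = 0.0165), while its middle to dense change of 0.43 did not pass the test (adjusted p = 0.324). Creld2, a disulfide isomerase relative induced by ER stress, had a trough in the middle zone. Its light libraries held 19.9 to 31.1 TPM (median 24.5), its middle libraries 7.15 to 13 (median 9.11) and its dense libraries 11.4 to 26 (median 19.5).

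Creld2 thus fell to the middle zone by 1.34 (adjusted p = 0.00407) and rose again to the dense zone by 0.93 ± 0.20 (adjusted p = 0.0222), and the light to dense change of -0.41 did not pass the test (adjusted p = 0.122, and 0.0459 with the block). Past the dense zone, fraction 21 held 7.25 TPM in gradient 1, its lowest library there, and 22.8 TPM in gradient 2. Across the module, the middle zone lay below the mean of both ends in 37 members and above it in 5, and below it in 4681 of the 11754 genes tested. The difference passed the test in 6 of the 37 (Erp29, Canx, Ero1l, Creld2, Sel1l and Edem3; 3.61% of all genes) and in 0 of the 5 (13.5% of all genes). With the gradient number as a block, 26 passed below and 1 above, beside 16.1% and 34.8% of all genes in that fit. The number that passed below ran from 2 to 14 over the other settings, so that this count rests on the choice of fit and zones.

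Neither of the 2 prolyl isomerases, which speed the turning of proline bonds, passed the test from the light to the dense zone. Ppib (cyclophilin B) held 149 to 263 TPM (median 203) in the light zone, 42.4 to 146 (median 89.8) in the middle zone and 56 to 188 (median 108) in the dense zone. It was 2.97-fold higher in the light than in the dense zone of gradient 1 and 1.09-fold higher in gradient 2 (change -0.82, adjusted p = 0.187). Its light to middle change of -1.26 passed with the block (adjusted p = 0.022), as did the -1.72 found with libraries scaled to equal distributions (adjusted p = 0.0332). Fkbp2 had the shortest coding sequence of the members with 140 codons, and held 37.5 to 68.9 TPM (median 46) in the light zone and 44.6 to 117 (median 77.8) in the dense zone (change 0.57, adjusted p = 0.189). The gradients did not share a profile for it, with a Pearson's R of -0.00449 over the 17 fractions that both hold.

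The 10 degradation factors held the widest range of profiles. From the light to the dense zone 7 fell (39.6% of all genes) and 1 rose (22.3%), and the 7 act at the membrane or in the lumen. Sel1l, the membrane adaptor of the main ubiquitin ligase complex, held 24.1 to 82.1 TPM (median 43.9) in the light zone and 3.66 to 9.28 (median 5.79) in the dense zone, and fell by 2.69 ± 0.31 (adjusted p = 0.00105). Its ligase partner Syvn1 (HRD1) fell by 1.74, the channel proteins Derl1 and Derl2 by 1.72 and 1.61, and the lectin Os9 by 1.58. With libraries scaled to equal distributions the change of Derl2 was -1.30 and did not pass the test (adjusted p = 0.0675). Edem1 and Edem3, which trim mannose from glycoproteins bound for degradation, fell by 1.97 and 1.93, and Edem2 changed by -0.77 (adjusted p = 0.0815, and 0.00236 with the block). Edem1 held 70.5 to 177 TPM (median 109) in the light zone and 16 to 41.6 (median 29.9) in the dense zone.

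Vcp (p97), the cytosolic ATPase that pulls substrates out of the membrane, was the only member that rose from the light to the dense zone in the fit without the block. Its light libraries held 78.1 to 175 TPM (median 99.2), its middle libraries 306 to 577 (median 392) and its dense libraries 639 to 994 (median 827), with no overlap between neighboring zones. The dense zone was 8.08-fold above the light zone in gradient 1 and 6.65-fold in gradient 2 (change 2.92 ± 0.18, adjusted p = 0.000301), and the step from the middle to the dense zone was 1.04 ± 0.18 (adjusted p = 0.0126). Vcp was also the most abundant member by mean TPM over the zone libraries (451).

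Herpud1, a stress-induced membrane protein of the ligase complex, was the next most abundant (mean 397 TPM) and leaned to the dense side. It held 152 to 363 TPM (median 212) in the light zone, 269 to 594 (median 382) in the middle zone and 298 to 797 (median 538) in the dense zone. The zones overlapped across the gradients, since gradient 2 was higher in each zone, with zone means of 301, 524 and 769 TPM against 163, 295 and 330 in gradient 1. The dense zone was 2.02-fold above the light zone in gradient 1 and 2.55-fold in gradient 2, and the change of 1.19 ± 0.52 passed the test only with the gradient number as a block (adjusted p = 0.000757, and 0.0926 without it).

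**Figure D3:**
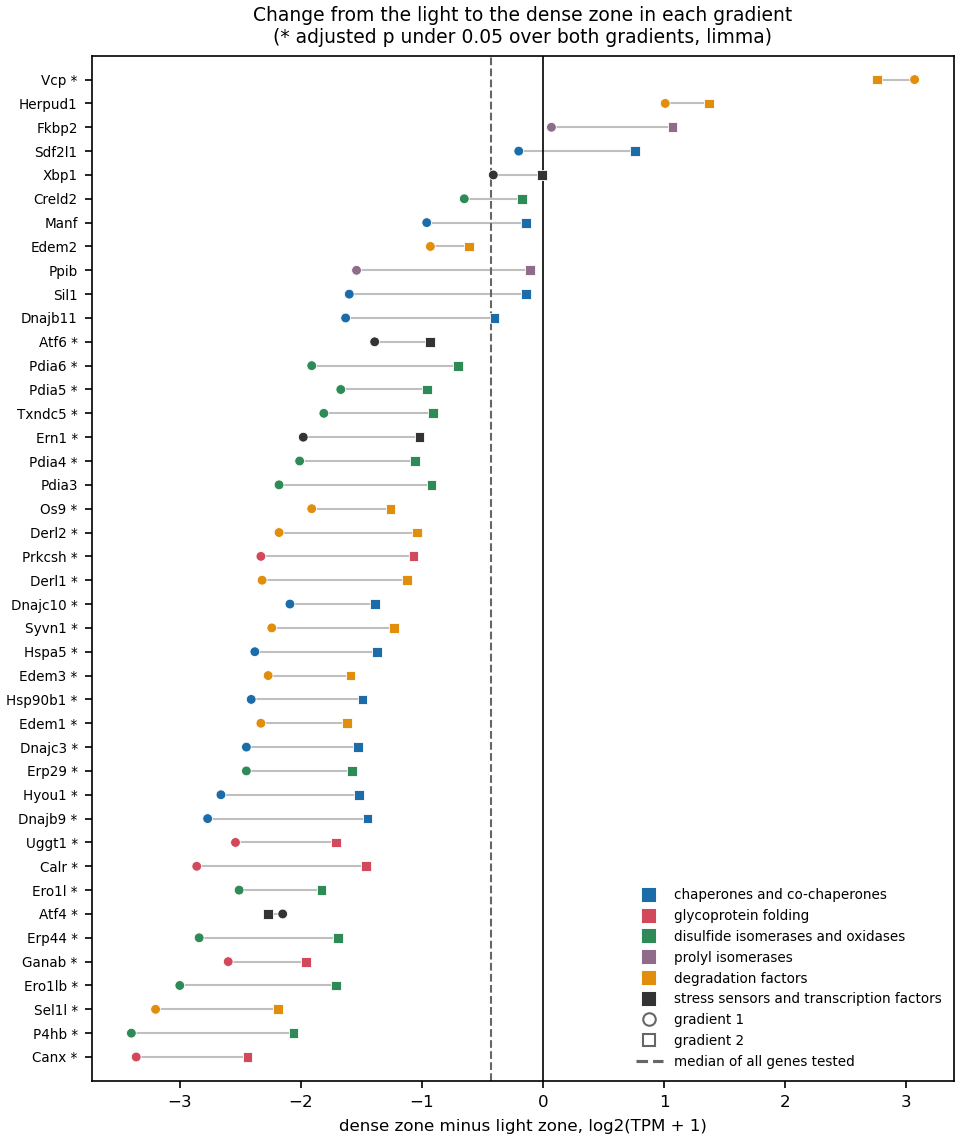
Dense zone minus light zone on the log2(TPM + 1) scale (horizontal axis) for the 42 mRNAs, with gradient 1 as circles, gradient 2 as squares, colors for roles, and a dashed line at the median of all genes tested (-0.43). The 2 gradients share the sign for 41 members, Sdf2l1 being the exception, while of the 11754 genes tested 6626 are negative in both and 4183 positive in both. Gradient 1 gives the lower value for all members except Vcp and Atf4.

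Of the 4 sensors and transcription factors, 3 fell from the light to the dense zone (39.6% of all genes) and the fourth, Xbp1, did not pass the test. Ern1, the membrane kinase and nuclease that splices Xbp1 mRNA, and Atf6, the membrane-tethered transcription factor, have signal or membrane-spanning sequences and fell by 1.50 ± 0.29 (adjusted p = 0.00606) and 1.16 ± 0.19 (adjusted p = 0.00363). Atf6 held 18.3 to 43.1 TPM (median 29.8) in the light zone and 8.72 to 16 (median 12.5) in the dense zone. The peak of both was fraction 5 of gradient 1 and fraction 6 of gradient 2.

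Atf4, a soluble transcription factor whose translation rises in stress, had a profile of its own. It held 135 to 288 TPM (median 205) in the light zone, 65.5 to 192 (median 112) in the middle zone and 33.6 to 51.7 (median 43.3) in the dense zone. The level peaked at fraction 7 in gradient 1 (287 TPM) and fraction 8 in gradient 2 (303 TPM), past the peak of most members, and kept falling to the dense zone: the light to dense change was -2.21 ± 0.14 (adjusted p = 0.000306) and the middle to dense change -1.37 ± 0.14 (adjusted p = 0.007). The fall agreed closely between gradients, at -2.15 and -2.27.

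Xbp1 changed less than most members. It held 92.2 to 170 TPM (median 121) in the light zone, 88 to 104 (median 95) in the middle zone and 87 to 128 (median 112) in the dense zone, and neither the light to dense change of -0.21 (adjusted p = 0.313) nor the light to middle change of -0.40 (adjusted p = 0.0998, and 0.0351 with the block) passed the test. With libraries scaled to equal distributions the light to middle change was -0.73 and passed it (adjusted p = 0.0175). Spliced and unspliced Xbp1 mRNA were not told apart here, since the tables give 1 value per gene, and how transcripts were summed to genes is not given in the sources used here.

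The profiles of most members were close to each other. Over the 17 shared fractions, the median Pearson's R between the gradients was 0.959 over the members and 0.899 over all genes tested, and it passed 0.9 in 29 members (69%, beside 49.8% of all genes). By rank the order turned, with a median Spearman's rho of 0.757 over the members and 0.833 over all genes. Edem1 had the highest R (0.994), and Fkbp2 and Sdf2l1 (0.178) the lowest. Over the 17 fractions of gradient 1 the median R over the 861 pairs of members was 0.851, beside 0.0667 over all gene pairs. In gradient 2 it was 0.675 beside 0.117 over all 22 fractions, and 0.769 beside 0.085 over the 17 shared ones. These values are descriptions, since neighboring fractions share much of their RNA.

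The gradients differed on the dense side. In gradient 2 the level was higher at fraction 21 than at fraction 13 in 41 of 42 members, with Atf4 as the exception, and the median difference was 0.68 on the log2 scale. In gradient 1 it was higher in 22 of 42, with a median difference of 0.01. Of all genes tested, 38% were higher at fraction 21 in gradient 1 and 33.6% in gradient 2. P4hb shows the pattern: it stayed between 46.3 and 55.4 TPM from fraction 12 to 21 of gradient 1, but climbed from 84.5 TPM at fraction 13 to 139 at fraction 19 and 208 at fraction 24 of gradient 2.

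The gradients also differed in the center of sedimentation, the mean fraction number weighted by TPM over the 17 shared fractions. The median center of the members was 8.72 in gradient 1 and 10.1 in gradient 2, while that of all genes was 11.3 in each. The center was higher in gradient 2 for 41 of 42 members and for 42.2% of all genes, and the median of gradient 2 minus gradient 1 was 1.42 fractions over the members and -0.094 over all genes. A shift of at least 0.5 fractions was seen in 40 members (95.2%) and in 18.8% of all genes. The members without such a shift were Vcp, at 15.1 and 15 fraction numbers, and Atf4, at 9.21 and 9.22. With 1 gradient on each side, the difference between the gradients was not tested, and 32 of 42 members stayed lighter than the median of all genes in both, as did 5351 of the 11754 genes tested.

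**Figure D4:**
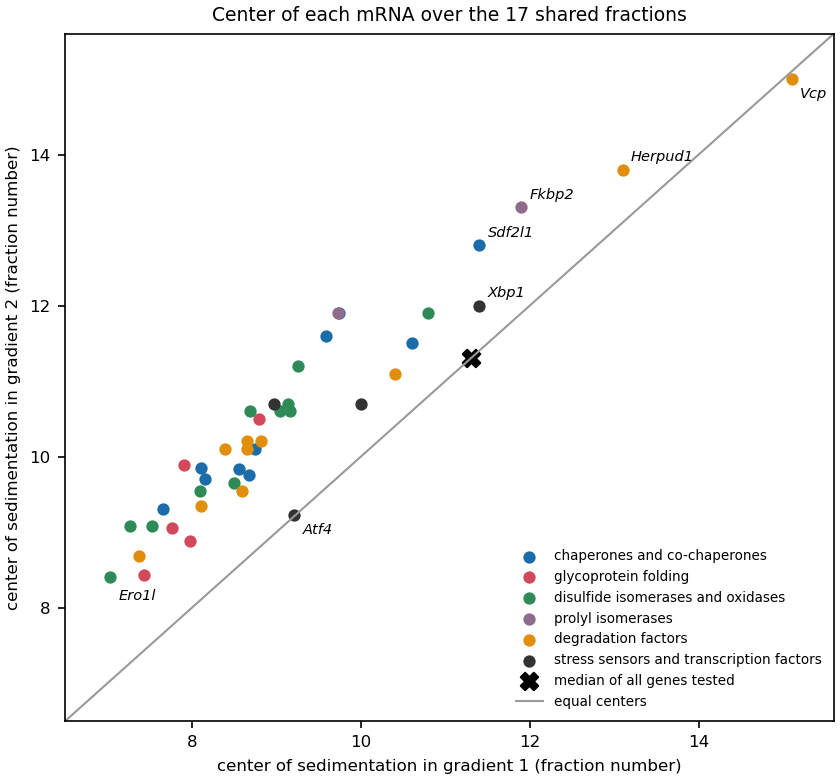
Center of sedimentation of each mRNA over the 17 shared fractions in gradient 1 (horizontal axis) and gradient 2 (vertical axis), in fraction numbers, with colors for roles, a cross at the median of all genes tested (11.3 in each gradient) and a line of equal centers. Vcp and Atf4 lie on the line, and the other 40 members lie above it.

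The coding length of the members ran from 140 to 1551 codons with a median of 504 (447 over 11005 tested genes). Shorter members tended to have denser centers, with a Spearman's rho between codons and center of -0.311 in gradient 1 and -0.354 in gradient 2. Without Vcp, Herpud1 and the 4 sensors and transcription factors, a set left out after their values were seen, rho was -0.383 and -0.507 over 36 members. Over all genes rho was 0.129 and 0.12. The densest of these 36 were Fkbp2 (140 codons) and Sdf2l1 (221), with centers in gradient 1 of 11.9 and 11.4, while Dnajb9, with 222 codons, was lighter than most at 7.66. The share of T at the second codon position had a rho with the center of -0.11 and -0.0937 over the 42 members, 0.145 and 0.117 over the 36, and -0.146 and -0.0742 over all genes, so that its sign turned with the set.

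**Figure D5:**
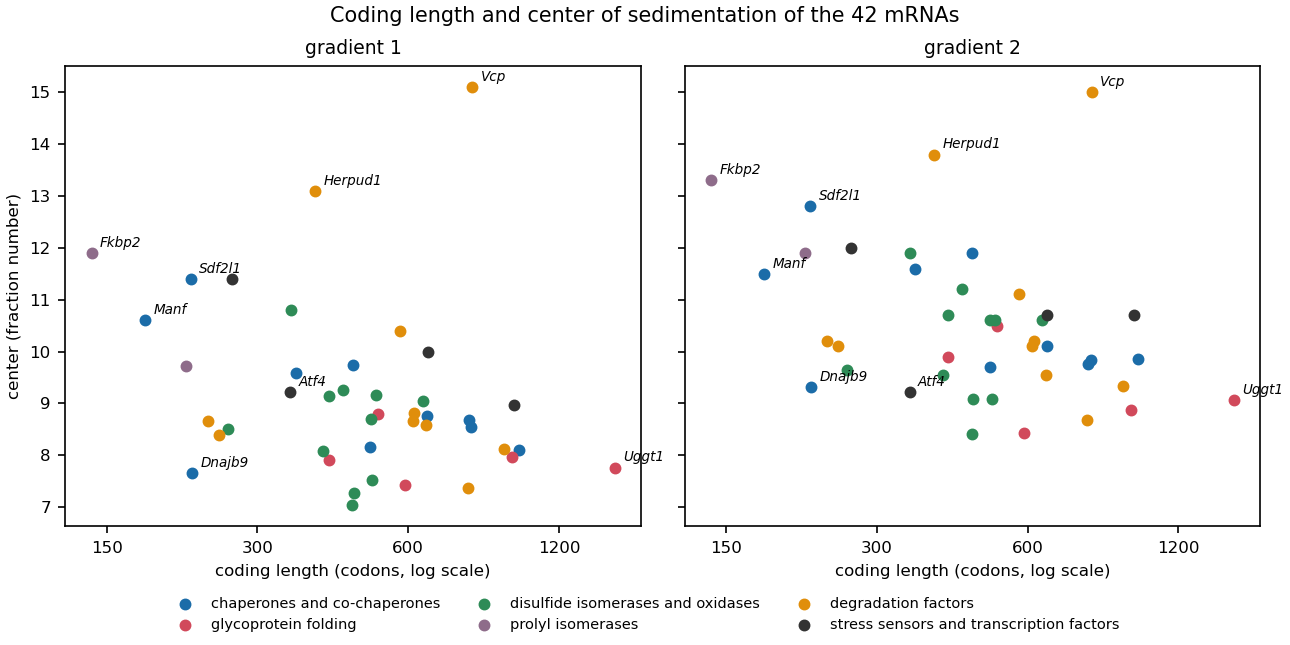
Coding length in codons (horizontal axis, log scale) and center of sedimentation in fraction numbers (vertical axis) of the 42 mRNAs in gradient 1 (left) and gradient 2 (right), with colors for roles. Fkbp2, with 140 codons, has a center of 11.9 and 13.3, Uggt1, with 1551 codons, a center of 7.76 and 9.06, and Vcp and Herpud1 stand above all other members.

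Genes of the same pathways outside the 42 were counted from lists that share no gene with the members, and their counts stand beside 39.6% of all genes that fell and 22.3% that rose from the light to the dense zone. Of 37 other ER folding genes tested, 25 fell from the light to the dense zone and 0 rose (median -1.19). The selenoprotein Sep15, a partner of Uggt1, fell by 1.28 and Mcfd2, a subunit of a cargo receptor, by 1.01, while the vitamin K reductase Vkorc1 changed by -0.64 (adjusted p = 0.0548). Of 38 other degradation genes, 18 fell and 5 rose (median -0.72), with the falls near the share of all genes. The membrane ligase Rnf5 fell by 1.03 from the light to the dense zone, but unlike most members it rose to the middle zone, by 0.61 (adjusted p = 0.0223). Ubqln1, a cytosolic ubiquitin receptor, rose by 0.71 from the light to the dense zone, and Rad23b, another such receptor, changed by 0.28 (adjusted p = 0.151). Of 17 other genes of the unfolded protein response, 5 fell and 5 rose (median -0.19), both near the share of all genes. The phosphatase subunit Ppp1r15b fell by 1.40, while Bloc1s1, an mRNA that Ern1 cuts, rose by 1.50, Creb3l3, a membrane-bound transcription factor of liver, by 1.48 and Rtcb, the ligase that joins the cut Xbp1 mRNA, by 1.47.

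Cytosolic chaperones moved the other way. Of 36 tested, 26 rose (22.3% of all genes), 1 fell, and the median change was 1.27. Ppia, the cytosolic counterpart of Ppib, rose by 2.59 and Hsp90ab1, a cytosolic relative of Hsp90b1, by 0.82, while Hspa8, a cytosolic relative of Hspa5, changed by -0.88 (adjusted p = 0.199). Plasma proteins, the main clients of this machinery in liver, behaved like the members: 17 of 25 fell (39.6% of all genes) and 1 rose (median -1.68). Alb fell by 2.59, and Apoa2, the exception, rose by 1.25. Their median center went from 9.08 in gradient 1 to 11 in gradient 2, as that of the members did, while the cytosolic chaperones had 13.8 and 13.7.

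The non-member profiles nearest to the mean profile of the members, ranked by the lower Pearson's R of the 2 gradients among genes with a mean of at least 10 TPM, were those of Ces3a, Itih4, Cd1d1, C1s1, Lifr, Slc47a1, Cyp4f14, Slc16a12, Igfbp4 and Proz. For Ces3a, a carboxylesterase, R was 0.996 in gradient 1 and 0.99 in gradient 2. Itih4 (R 0.997 and 0.99), C1s1, Igfbp4 and Proz encode secreted plasma proteins, and Lifr, Slc47a1 and Slc16a12 encode a receptor and transporters of the cell surface. R was taken over the 17 shared fractions and is a description.

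The libraries had the markers of liver. The 8 hepatocyte markers, which include secreted proteins such as Alb, summed to 19338 to 47597 TPM in the light zone, 9513 to 16204 in the middle zone and 14213 to 29241 in the dense zone. The 6 Kupffer cell markers summed to 115 to 173 TPM in the light zone, 40.7 to 60.8 in the middle zone and 44.1 to 55.9 in the dense zone, and stellate cell markers to 67.8 to 153, 46.3 to 60.1 and 33.3 to 42.8. The 6 endothelial markers summed to 38.1 to 76.4 TPM in the light zone, 23 to 61.8 in the middle zone and 16.6 to 34.9 in the dense zone, and the 4 cholangiocyte markers listed for both gradients to 9.43 TPM or less. No plasma cell or B cell marker was listed for both gradients. The part of these cells in the light-zone levels of the members was not tested. Annotated exons of 13 members overlap another gene, on the same strand in Hsp90b1, Manf and Pdia4, and the TPM of these 3 may hold reads of the overlapping gene. Whether reads were assigned by strand is not given in the sources used here. If they were not, the members with an overlap on the opposite strand may hold such reads too.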

How the data were processed

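RNA of sucrose fractions was depleted of ribosomal RNA and made into stranded libraries. Per the submitters' processing notes, reads were demultiplexed with bcl2fastq 2.16.0.10. The authors pseudo-aligned them with Kallisto (version not given in the sources used here) to an mm10 RefSeq index and deposited gene-level TPM, a table per gradient, of genes over 1 TPM in at least 1 fraction. TPM holds no counts, so depth is unknown, and precision is known only from the spread of 2 gradients.

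From the 13230 genes in both tables, 11754 with a mean of at least 1 TPM over 24 zone libraries were tested with limma 3.58.1 (R 4.3.3, eBayes with trend, pseudocount 1) on 6 zone means, with Benjamini-Hochberg adjustment over all of them and no adjustment over the members alone. All zones of 1 gradient share its homogenate, and their deviations from the mean of both gradients correlated across genes at 0.54 to 0.798, so the gradient pairs them. The fit was repeated with that block. Per the methods, the 2 gradients are independent biological replicates.

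The members, lists and zones were chosen with earlier results of these data known. Values by zone are given for the 3 most abundant members of each role, the 3 largest rises and falls of each contrast and members called against the majority, and the other genes are the most abundant of their list or the most like the members' mean profile. Coding sequences came from GENCODE M21 (GRCm38), in place of a planned comparison of proteins, and were chosen after the values were known. Alternatives changed the pseudocount, filter, scaling, zone borders, averaging and block, or left out a gradient.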

Additional observations from a re-analysis of the deposited data

How the results depend on the processing

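All 42 members kept the direction of their light to dense and light to middle changes under the other pseudocount, both other filters (37 members were tested with a mean of at least 10 TPM), both other scalings, both other zone borders, averaging before the log, and the block; with a single gradient, Sdf2l1 changed sign. With the gradient number as replicate block, the genes called went to 8478 from the light to the middle zone, 6275 from the middle to the dense zone and 5979 between the middle zone and both ends, where 27 members were called. With a mean of at least 10 TPM, 4798 of 7233 genes were called from the light to the dense zone. The middle zone against both ends was the least settled: 6 members were called, all below, but 3 with a pseudocount of 0.1 (2.35% of all genes below), 11 with quantile normalization (6.86%), 2 with fractions 5 to 7, 10 to 12 and 17 to 19 (2.31%), and 15, of which 14 below, with fractions 4 to 6, 11 to 13 and 16 to 18 (7.95%). There the median of the members minus that of all genes was -0.99, and -1.06, -1.04, -0.89 and -1.12 under these settings, and -0.94 without a filter. With quantile normalization 2 members lay above 0 in this contrast in place of 5, and Atf4 turned to -0.11. The cause of these shifts was not tested. Quantile normalization also moved the median of all genes from the middle to the dense zone from -0.28 to 0.03 and the share of falls among calls from 82.5% to 57%, and with it 38 members lay above 0 in place of 22. From the light to the middle zone, 23 members fell with fractions 5 to 7 and 10 to 12 (20.9% of all genes). The median agreement of the gradients was 0.912 on log values (0.891 over all genes) and 0.757 by Spearman's rho (0.833 over all genes). TPM gives no depth, so counting error could not be set beside low members such as Ero1l and Uggt1.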
